A study of Avicennia officinalis with 4 samples.

Results

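In roots of the mangrove Avicennia officinalis, 8 assembled transcripts (unigenes) annotated as transcription factors of the WRKY and NAC families are described here. They were chosen by the study's own list: every unigene that it annotates as WRKY or NAC and lists as higher in salt-treated than in control roots. There were 4 WRKY unigenes (Unigene36701_All, Unigene100648_All, Unigene8314_All and Unigene97853_All) and 4 NAC unigenes (Unigene42722_All, Unigene64865_All, Unigene152309_All and Unigene149916_All), of 168308 unigenes in all, and they are called by Ug and their number from here on. The list rests on the same 4 libraries, so the salt difference of these unigenes is given as a description and was not tested.

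Salt-treated libraries came from roots of seedlings given 500 mM NaCl in diluted Hoagland's nutrient solution over 24 h, and control libraries from roots of seedlings without this treatment. All seedlings were about 2 months old, had been raised from propagules in a greenhouse without NaCl and had been moved from potting mixture to sand. There were 2 mRNA-sequencing libraries per group, numbered 1 and 2, and each was made from the pooled roots of 3 plants, so that differences between single plants are not seen. What the numbers 1 and 2 stand for, apart from separate biological replicates, is not given in the labels.

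WRKY proteins are plant transcription factors named after a conserved amino acid motif, and they bind W-box elements in promoters. They are best known from immunity, wounding and senescence, and many of them also respond to salt or drought. NAC proteins, named after NAM, ATAF and CUC, share an N-terminal DNA-binding domain and act in meristem boundaries, lateral roots, senescence and responses to salt and drought. In Arabidopsis a gene called NAC2 acts downstream of ethylene and auxin in the salt response and in lateral root formation. Ug42722 is the member that the study names NAC domain-containing protein 2, and for the other members the list gives the family. Whether Ug42722 corresponds to that Arabidopsis gene was not tested. Further NAC and WRKY gene names in the study are not tied to a unigene number in its text, so none is used here.

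Each library had 16943847 to 22074032 reads on the 62900 unigenes with enough reads to be tested. The 2 libraries of a group were less alike than libraries with the same number: over these unigenes, log2(CPM + 1) had a Pearson correlation of 0.875 between the salt-treated and 0.836 between the control libraries, against 0.965 between the libraries numbered 1 and 0.939 between those numbered 2. CPM are reads scaled to the size of the library, here with TMM factors, which correct for differences in library composition. These correlations run across unigenes, which are not independent, and serve as a description. Without sequences or gene names for the whole table, the root origin of the libraries could not be checked against marker genes.

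The members ranged from rare to moderately abundant. Together they had 515 reads in the 4 libraries, 331 on WRKY and 184 on NAC unigenes. The highest mean RPKM (reads scaled to the length of the unigene and to the counted reads of the library) belonged to Ug64865, Ug8314 and Ug36701, which lay at percentiles 77.0, 76.2 and 74.5 of the 121929 unigenes with reads. Ug152309 and Ug149916 followed at percentiles 56.2 and 54.0, Ug100648 and Ug42722 at 40.8 and 32.4, and Ug97853 at 3.31. In salt-treated roots the order of mean RPKM was Ug64865, Ug8314, Ug36701, Ug152309, Ug149916, Ug100648, Ug42722 and Ug97853. No neighbours in that order differed by more than the larger of their SDs, which reached 4.2 RPKM for Ug8314. In control roots Ug64865, Ug36701 and Ug8314 came first, with means from 0.902 to 1.09 RPKM that differed by less than their spread. Among the rest of the control order, Ug100648 exceeded Ug149916 by 0.157 RPKM, about the same as the larger SD of 0.157 RPKM. Where a library has no read, its level may still be as high as 3 reads, or 0.131 to 0.179 CPM depending on the library. Like the intervals below, this limit accounts for counting error alone, because several reads can stem from 1 molecule.

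**Figure D1:**
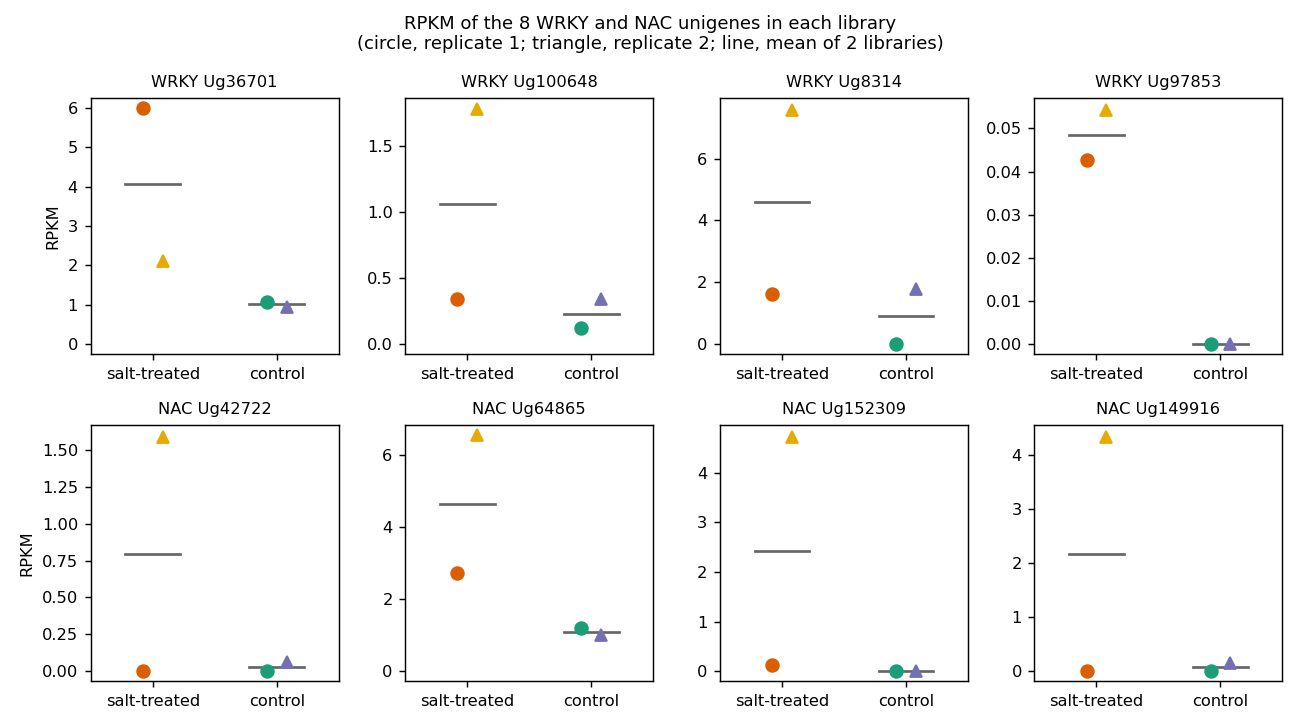
RPKM of the 8 unigenes in the salt-treated libraries (left in each panel) and the control libraries (right), with circles for replicate 1, triangles for replicate 2 and lines at the mean of 2 libraries. Each panel has its own linear scale, and in Ug42722, Ug152309 and Ug149916 the salt-treated mean lies between 1 library near 0 and 1 library at 1.59, 4.73 or 4.34 RPKM.

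The WRKY unigene Ug36701 (414 bp) had RPKM values of 5.99 and 2.12 in salt-treated replicates 1 and 2, against 1.08 and 0.95 in control replicates 1 and 2. These come from 54 and 15 reads in the salt-treated libraries and 10 and 7 reads in the control libraries. The groups did not overlap, and the means were 4.05 ± 2.74 RPKM in salt-treated and 1.01 ± 0.0894 RPKM in control roots (SD, n = 2 libraries). Within replicate number 1, the CPM ratio of salt-treated over control was 5.3 (95% counting interval 2.67 to 11.7). Within number 2 it was 2.22 (0.851 to 6.43), an interval that includes no difference. As in any whole tissue, more cells with this transcript and more of it per cell cannot be told apart. Ug36701 was the member with a lower level in salt-treated replicate 2 than in replicate 1, and its fitted log2 fold change of 1.93 (standard error 0.8) became 1.04 without salt-treated replicate 1.

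Ug8314 (872 bp) had the most reads of the members. Its RPKM was 1.63 and 7.57 in salt-treated replicates 1 and 2, against 0 and 1.8 in control replicates 1 and 2, from 31 and 113 reads and from 0 and 28 reads. The groups overlapped, since salt-treated replicate 1 lay just below control replicate 2, but the salt-treated library was the higher one within each number. Within number 1, where the control library had no read, the ratio was 10.1 with the control counted as 3 reads. The 95% counting interval of the ratio there began at 7.77. Within number 2 the ratio was 4.18 (95% counting interval 2.74 to 6.56). The spread between the libraries of a group was of the same order as the difference between the groups, with means of 4.6 ± 4.2 RPKM in salt-treated and 0.902 ± 1.28 RPKM in control roots (SD, n = 2 libraries). The log2 fold change of 2.34 (standard error 1.8) was 0.76 when salt-treated replicate 2 was left out and 1.33 when control replicate 1 was. Leaving out salt-treated replicate 1 gave 3.07, and leaving out control replicate 2 left a control with no reads, so that the fold change had no bound. Each fit with a library left out also has unequal replicate numbers in the groups.

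Ug100648 (1476 bp) was less abundant and showed the same tilt towards the libraries numbered 2. It had RPKM values of 0.342 and 1.78 in salt-treated replicates 1 and 2, from 11 and 45 reads, against 0.121 and 0.343 in control replicates 1 and 2, from 4 and 9 reads. Salt-treated replicate 1 and control replicate 2 were nearly equal, so the groups touched. The ratio of salt-treated over control was 2.7 within number 1 (95% counting interval 0.8 to 11.6) and 5.17 within number 2 (2.5 to 12.0). The log2 fold change of 2.17 (standard error 1.13) was 0.47 without salt-treated replicate 2 and 2.92 without salt-treated replicate 1. Leaving out control replicate 2 or 1 gave 3.12 or 1.6.

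The longest WRKY unigene, Ug97853 (2149 bp), was close to the limit of detection. Each salt-treated library had 2 reads and each control library 0, which is 0.0427 and 0.0543 RPKM in salt-treated replicates 1 and 2 and 0 RPKM in both control replicates. All these counts are within the limit of 3 reads, so no fold is given, and a difference between the groups was not detectable at this depth.

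Of the NAC unigenes, Ug64865 (338 bp) was the one with reads in every library. Its RPKM was 2.72 and 6.56 in salt-treated replicates 1 and 2, against 1.19 and 0.997 in control replicates 1 and 2, from 20 and 38 reads and from 9 and 6 reads. Both salt-treated libraries exceeded both control libraries, and the means were 4.64 ± 2.72 RPKM in salt-treated and 1.09 ± 0.134 RPKM in control roots (SD, n = 2 libraries). Within number 1 the ratio of salt-treated over control was 2.18 (95% counting interval 0.949 to 5.44), and within number 2 it was 6.55 (2.75 to 19). The log2 fold change was 2.04 (standard error 0.81), and 1.22 without salt-treated replicate 2. It lay between 1.97 and 2.55 without any other single library.

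In these reads, Ug42722 (1831 bp), the NAC domain-containing protein 2 of the study, rested on 1 library. The study also reports quantitative PCR of transcription factors, which is not part of these data. Ug42722 had 0 and 50 reads in salt-treated replicates 1 and 2, which is 0 and 1.59 RPKM. In control replicates 1 and 2 it had 0 and 2 reads, which is 0 and 0.0613 RPKM. No read was found in either library numbered 1, so within that number no difference could be seen. Within number 2 the ratio of salt-treated over control was 25.9, with a wide 95% counting interval of 6.8 to 219. Salt-treated replicate 2 held 96.3% of its CPM summed over the 4 libraries.

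The short NAC unigenes Ug152309 (358 bp) and Ug149916 (377 bp) had the same pattern. Ug152309 had 1 and 29 reads in salt-treated replicates 1 and 2 (0.128 and 4.73 RPKM), against 0 reads in both control libraries. Within number 2 its ratio was 10 with the control counted as 3 reads (95% counting interval from 7.63), and within number 1 it rested on a single read. Ug149916 had 0 and 28 reads in salt-treated replicates 1 and 2 (0 and 4.34 RPKM), against 0 and 1 reads in control replicates 1 and 2 (0 and 0.149 RPKM). Its ratio within number 2 was 29.0 (95% counting interval 4.79 to 1180), and neither library numbered 1 had a read. For these NAC unigenes the salt-treated SD, 3.25 RPKM for Ug152309 and 3.07 RPKM for Ug149916, was larger than the salt-treated mean of 2.43 or 2.17 RPKM. The share of salt-treated replicate 2 in the CPM summed over all libraries was 97.5% for Ug152309 and 96.7% for Ug149916.

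**Figure D2:**
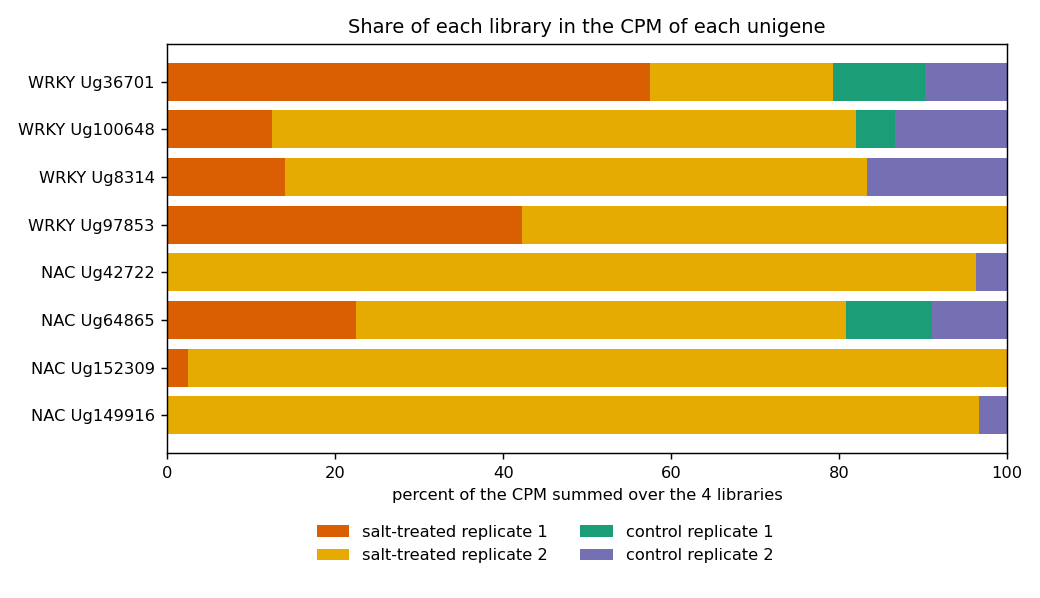
Percent of the CPM of each unigene, summed over the 4 libraries, that lies in salt-treated replicates 1 and 2 and in control replicates 1 and 2. Salt-treated replicate 2 holds 96.3% to 97.5% in Ug42722, Ug152309 and Ug149916, 57.7% to 69.5% in Ug100648, Ug8314, Ug97853 and Ug64865, and 21.8% in Ug36701.

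The families are set side by side by the sums of their 4 unigenes and by the ratios within each replicate number. Summed over the 4 WRKY unigenes, the RPKM was 8.01 and 11.5 in salt-treated replicates 1 and 2, against 1.2 and 3.1 in control replicates 1 and 2. Summed over the 4 NAC unigenes it was 2.85 and 17.2 in salt-treated replicates 1 and 2, against 1.19 and 1.21 in control replicates 1 and 2. The NAC sum in salt-treated replicate 1 was nearly all Ug64865, whereas in salt-treated replicate 2 every NAC unigene contributed. On the log2 scale of CPM plus 0.1, which understates the difference of unigenes with few reads, the WRKY ratios of salt-treated over control ranged from 0.91 to 3.86 within number 1 and from 0.98 to 2.17 within number 2. The NAC ratios ranged from 0 to 0.96 within number 1 and from 2.41 to 4.19 within number 2. Within number 1, however, Ug42722 and Ug149916 had no reads and Ug152309 had 1, so that Ug64865 was the NAC unigene with a ratio there. The size of these ratios depends on the added constant. With 1 added in place of 0.1, the ranges within number 2 were 1.28 to 1.84 for NAC and 0.16 to 1.57 for WRKY. With 0.5 added they were 1.71 to 2.5 for NAC and 0.31 to 1.78 for WRKY. The families thus overlapped within number 2 with either of these constants, whereas with 0.1 they did not. Within number 1, Ug8314 had 1.24 with 1 added and 1.89 with 0.5 added, in place of 3.86. Unigenes of a family are not replicates of it, so the difference between the families was not tested. The families also differed in length, with a median of 1174 bp for WRKY and 367.5 bp for NAC. The length of a unigene cancels in its ratio, apart from the added constant, but it weighs on the RPKM sums. In salt-treated replicate 2 the NAC unigenes had the higher RPKM sum but fewer reads, 145 against 175 for WRKY. How far length bears on the comparison of the families was not tested.

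**Figure D3:**
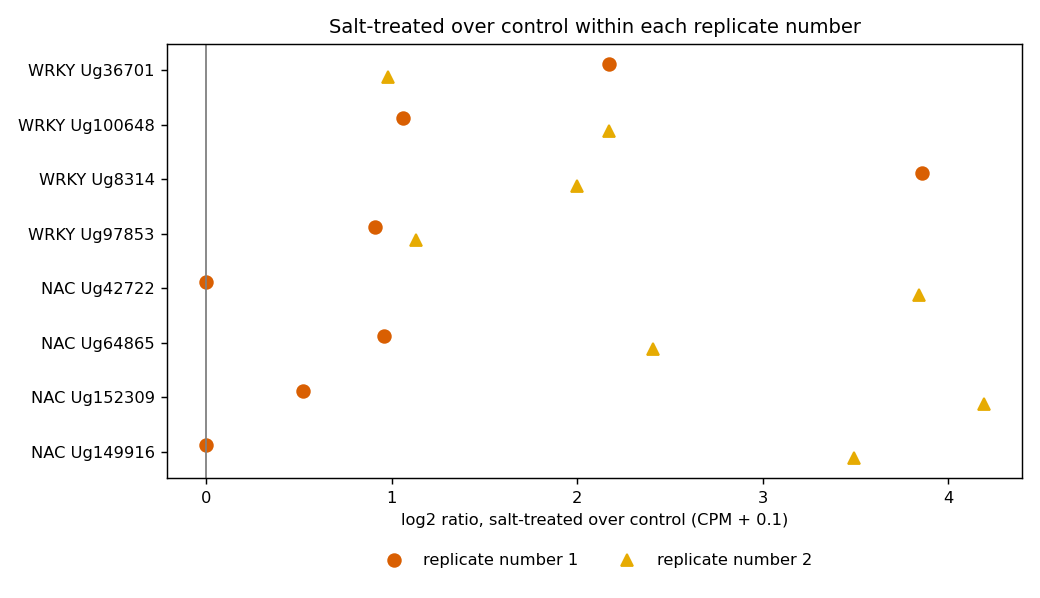
Log2 ratio of salt-treated over control for each unigene within replicate number 1 (circles) and number 2 (triangles), from CPM plus 0.1, with a line at 0. The 4 NAC unigenes lie between 0 and 0.96 within number 1 and between 2.41 and 4.19 within number 2, whereas the WRKY ranges overlap; Ug42722 and Ug149916 have no reads in either library numbered 1.

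Counts over the members describe the list and are no evidence for the direction that chose it. Only 4 members passed the filter on low counts, the WRKY unigenes Ug36701, Ug100648 and Ug8314 and the NAC unigene Ug64865, and 4 did not. Salt-treated libraries were both above the 2 control libraries for 2 of the 4 that passed (Ug36701 and Ug64865), where the share among all tested unigenes was 8.12%. The same held for 2 of the 4 that did not pass (Ug97853 and Ug152309, with 4 and 30 reads), where the share among the 59029 unigenes with reads below the filter was 8.61%. The salt-treated library was the higher one within both numbers for 4 of the 4 that passed, beside 23.0% of tested unigenes, and for 2 of the 4 that did not, beside 14.3%. A share of 90% or more of the CPM in salt-treated replicate 2 was found for 0 of the 4 that passed, beside 0.0541% of tested unigenes, and for 3 of the 4 that did not, beside 6.09%. The filter asks for reads in 2 libraries and so removes most unigenes with such a share, and the 6.09% includes unigenes with a single read. Without salt-treated replicate 1, a choice made after seeing the data, the remaining salt-treated library was above the control libraries for 4 of the 4 that passed and 4 of the 4 that did not. The same rule held for 29.5% of tested unigenes and 32.0% of those below the filter.

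Across all tested unigenes, the quasi-likelihood test of edgeR, with p-values adjusted by the method of Benjamini and Hochberg, called 0 unigenes (0%) between salt-treated and control roots at an adjusted p of 0.05. At an unadjusted p under 0.05 it found 129 of the 62900 unigenes, a smaller share than the 0.05 expected when no unigene differs. The test was thus conservative here, and its 0 calls do not show that salt changed little. DESeq2 called 2, Ug30694 (lower) and Ug46459 (higher), neither of them a WRKY or NAC member. These were named after their values were seen. The biological coefficient of variation, the spread between libraries of a group that edgeR estimates beyond counting error, was 0.671. The median log2 fold change of all tested unigenes was -0.0034, and the members that passed the filter ranged from 1.93 to 2.34.

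The libraries numbered 2 were also set against those numbered 1, with the condition as a term in edgeR's fit. Over the whole table, this quasi-likelihood fit called 10.6% of the 62900 tested unigenes at an adjusted p of 0.05. For the members the replicate difference was not tested, since the list rests on the reads of all 4 libraries and 1 high library could place a unigene on it. The estimates for those that passed the filter are given as a description. Ug8314 had a log2 fold change of 3.16 ± 0.82 (estimate ± standard error), which became 7.91 without salt-treated replicate 1 and 8.09 without salt-treated replicate 2. In both of these fits the 0 reads of control replicate 1 set the size. Ug100648 had 2.1 ± 0.67, and 1.45 to 2.46 with a library left out. Ug64865 had 0.74 ± 0.68, with either sign once a salt-treated or a control library was left out (-0.26 to 1.37). Ug36701 was the one with the opposite sign, at -0.88 ± 0.64, and it had -0.19 and -0.12 when salt-treated replicate 1 or 2 was left out.

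The CPM ratio of replicate 2 over replicate 1 within the salt-treated group shows the same spread directly, again as a description. With the library at 0 counted as 3 reads, it was 22.7 for Ug42722 (95% counting interval from 17.8) and 12.7 for Ug149916 (from 9.68). For Ug152309 the ratio was 39.5 (95% counting interval 6.56 to 1610). The WRKY unigenes Ug100648 and Ug8314 had ratios of 5.58 (2.84 to 12.0) and 4.97 (3.32 to 7.65), and Ug64865 had 2.59 (1.47 to 4.7). Ug36701, at 0.379 (0.199 to 0.681), was lower in replicate 2. Within the control group, the ratio of Ug8314 was 12.1 with replicate 1 counted as 3 reads (95% counting interval from 9.19). The control intervals of Ug36701 (0.293 to 2.64), Ug100648 (0.812 to 12.9) and Ug64865 (0.253 to 2.71) included no difference. For the NAC unigenes that rest on salt-treated replicate 2, salt and a feature of that library cannot be told apart.

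Unigenes next to each other in the numbering of the assembly were looked at because Ug149916 and Ug152309 lie close together there. Of the 452 unigenes with reads within 250 numbers of Ug152309, 106 (23.5%) had 90% or more of their CPM in salt-treated replicate 2. Around Ug149916 this was 66 of 373 (17.7%), and over the whole table it was 2.97%. Among neighbours with 20 or more reads, the median share of salt-treated replicate 2 was 74.1% around Ug152309 and 60.1% around Ug149916, where all such unigenes have a median of 23.1%. These NAC unigenes thus shared their pattern with the stretch of the numbering they lie in. The neighbours of Ug42722 did not show it, with 3 of 231 (1.3%) and a median share of 22.9%, although Ug42722 itself did. Around Ug64865 the count was 13 of 419 (3.1%), and around the 4 WRKY unigenes it was 0% to 1.45%. What this stretch of the numbering stands for was not tested. In the study's annotation, the closest database protein is from S. bicolor for Ug152309, from C. variabilis for Ug149916, from M. domestica for Ug42722 and from P. trichocarpa for Ug64865. For the WRKY unigenes it is from R. communis (Ug36701 and Ug97853), V. vinifera (Ug100648) and C. sativus (Ug8314). For Ug149916 and the other members, neither the annotated family nor the species of origin was checked, because no sequences were at hand.

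**Figure D4:**
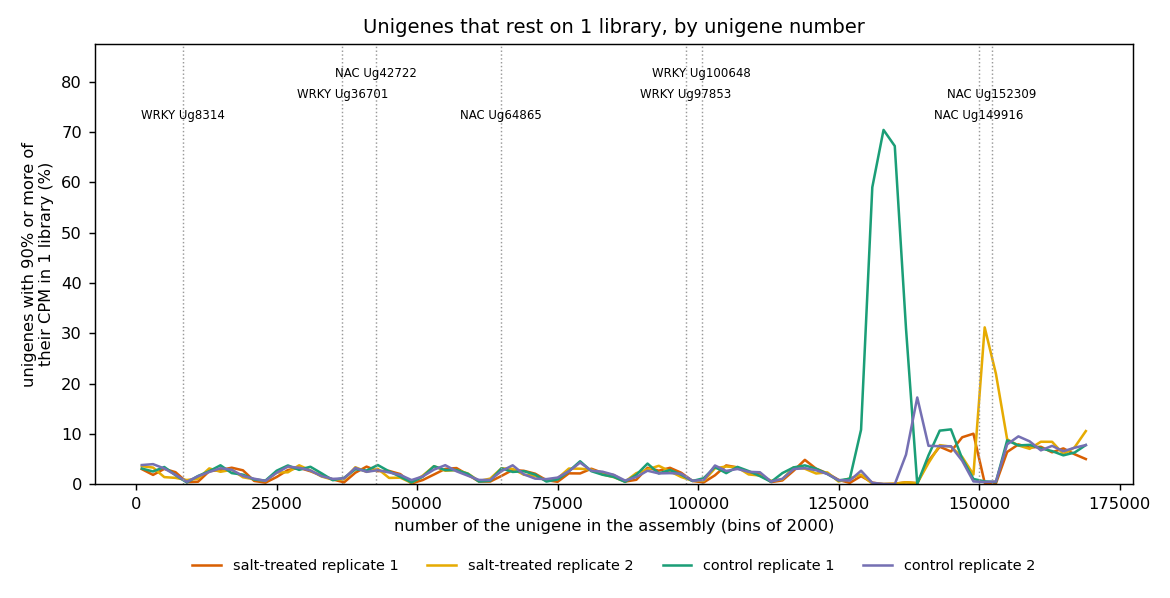
Percent of the unigenes with reads that have 90% or more of their CPM in 1 library, in bins of 2000 unigene numbers, with 1 line per library and dotted lines at the 8 members. The line of salt-treated replicate 2 reaches 31.18% in the bin around number 151000 and 21.96% in that around 153000, which holds Ug152309. Ug149916 lies at the upper edge of the bin around 149000, where salt-treated replicate 2 is at 1.92% and salt-treated replicate 1 at 10.04%, and the line of control replicate 1 reaches 70.43% around 133000.

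The study also lists 3 WRKY and NAC unigenes as lower in salt-treated roots, and they had few reads as well. The WRKY unigene Ug137386 (515 bp) had no read in either salt-treated library, against 6 and 9 reads in control replicates 1 and 2. Ug132510, also WRKY (418 bp), had 1 and 0 reads in salt-treated replicates 1 and 2, against 27 and 0 reads in control replicates 1 and 2, and its number falls in the stretch where most unigenes rest on control replicate 1. The NAC unigene Ug83973 (1996 bp) had 4 and 0 reads in salt-treated replicates 1 and 2, against 10 and 40 reads in control replicates 1 and 2. For Ug137386 and Ug83973 both control libraries lay above both salt-treated libraries, whereas Ug132510 had no read in either library numbered 2. None of these unigenes passed the filter.

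Of the other 19 transcription factor unigenes that the study lists as higher in salt, chosen in the same way, 7 passed the filter. Salt-treated libraries were both above the 2 control libraries for 4 of these 7, against 2 of the 4 WRKY and NAC unigenes that passed and 8.12% of all tested unigenes. Below the filter this held for 12 of 12, against 2 of the 4 WRKY and NAC unigenes and 8.61% of all unigenes with reads there. Below the filter a few reads are enough to meet this rule, as for Ug97853 with 4 reads in all. A share of 90% or more in salt-treated replicate 2 was found below the filter for 3 of the 4 WRKY and NAC unigenes, all NAC, for 0 of the 12 others and for 6.09% of all. The lists share their libraries and their way of choice, and no test was made of these counts.

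Gene names are known for the unigenes on the lists of transcription factors and of salt tolerance genes. Among these, 115 candidates with 20 or more reads were compared with each member by the root mean square difference of centred log2(RPKM + 0.1) over the 4 libraries. Nearest to Ug36701 were a vesicle-associated membrane protein (Ug124903, a protein of membrane fusion), at 0.26, and the tetrapyrrole enzyme uroporphyrinogen decarboxylase (Ug83277), at 0.32. Ug100648 was nearest to ferredoxin-3 (Ug112102, an electron carrier of plastids), at 0.24, and to the ethylene response factor (ERF) unigene Ug35061, at 0.28. Those nearest to Ug64865 were a CCCH zinc finger unigene (Ug66562), at 0.3, and cationic peroxidase 1 (Ug74595), at 0.33. Cationic peroxidase 1 was far more abundant, with 9703 and 9827 reads in salt-treated replicates 1 and 2, against 2890 and 1893 in control replicates 1 and 2. Nearest to Ug8314 was tubulin beta-8 chain (Ug78218, a subunit of microtubules), at 0.58, with 20 and 120 reads in salt-treated replicates 1 and 2, against 0 and 26 in control replicates 1 and 2. Protein kinase APK1A (Ug154422) followed at 0.65, with 42 and 66 reads in salt-treated and 1 and 24 in control replicates 1 and 2.

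For the NAC unigenes that rest on salt-treated replicate 2, the same unigene was among the 2 nearest in each case. Adenosyl homocysteinase (Ug150526, an enzyme that removes the by-product of methylation) lay at 0.43 from Ug42722, at 0.72 from Ug152309, the widest of these distances, and at 0.31 from Ug149916. It had 4 and 110 reads in salt-treated replicates 1 and 2, against 2 and 6 reads in control replicates 1 and 2. A class I heat shock protein unigene (Ug9510, a small chaperone) was nearest after it to Ug42722, at 0.55, and to Ug152309, at 0.83. The ribosomal protein L27a-3 unigene Ug150734, with 4 and 301 reads in salt-treated replicates 1 and 2, against 6 and 17 in control replicates 1 and 2, was nearest to Ug149916, at 0.3. Ug150526 and Ug150734 lie in the bin around number 151000, where 31.18% of unigenes with reads rest on salt-treated replicate 2. Ug9510 lies in the bin around 9000, where this is 0.83%. Whether these patterns reflect more than the shared library was not tested. Within the members themselves, Ug42722 and Ug149916 were 0.57 apart, Ug152309 was 0.89 from Ug42722, and Ug100648 and Ug64865 were 0.55 apart. All of these unigenes are on the study's lists of unigenes higher in salt, and 4 libraries give little room to tell patterns apart.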

How the data were processed

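The labels gave the condition and the replicate number of every library. The authors assembled clean HiSeq reads of oligo(dT)-selected mRNA with Trinity into unigenes and deposited, for each library, read counts without normalization and RPKM values, which their methods obtain with SOAP. RPKM recomputed from counts, length and counted reads differed by at most 5e-05. The treatment of read pairs and of reads that fit several unigenes was not given in the sources used here, so counts of related unigenes of a family may share reads. The table holds no sequences, and none are shown.

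Counts were analysed with edgeR 4.0.16 under R 4.3.3. Its filterByExpr (min.count of 10, min.total.count of 15) left 62900 unigenes for TMM scaling, the quasi-likelihood test and Benjamini-Hochberg adjustment. The condition was the only term for the salt difference, and the condition stayed as a term for the replicate number. Alternatives were DESeq2 1.42.0, its size factors in edgeR, no composition factors, no filter, a filter at 1 CPM in 2 libraries, limma 3.58.1 on log2(RPKM + 0.1) or log2(RPKM + 1), the replicate number as a term, each library left out, and 0.5 or 1 in place of 0.1 added to the CPM of the ratios within a replicate number. Leaving out a library for counts of members was chosen after seeing the data. Scripts were tested on simulated data. Ratios within a replicate number or a group are ratios of TMM-scaled CPM with exact (Clopper-Pearson) 95% counting intervals. Ratios against 0 reads use 3 reads, whereas their intervals use the 0 reads and have a lower end alone. Shares of at least 90% of the CPM in 1 library define unigenes that rest on it. All 8 members and the 3 WRKY and NAC unigenes listed as lower were named, with the 2 most similar unigenes of each member with 20 or more reads. The members and lists were chosen with earlier results of these data known. With 2 libraries per group, p-values measure the spread between these libraries only.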

Additional observations from a re-analysis of the deposited data

How the results depend on the processing

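The number of unigenes called between salt-treated and control roots was 0 in edgeR, 2 in DESeq2 and between 0 and 2 with each library left out, with the 2 found without control replicate 2. These, Ug131840 and Ug135076, were named after their values were seen and had 789 and 1512 reads in control replicate 1 but 0 in the control replicate 2 left out, so the calls rest on 1 control library. Between replicate numbers, 6648 calls became 12424 without a filter, where more unigenes are tested, and with a library left out no residual degrees of freedom remained for a test. The median log2 fold change of WRKY members that passed the filter was 2.17, and 0.76 to 3.12 with a library left out. For NAC it was 2.04 (Ug64865 alone), 4.62 over 4 unigenes without a filter, 1.34 in limma on log2(RPKM + 1) and 1.22 to 7.15 with a library left out. The 1.22 is Ug64865 alone, whereas the other values with a library left out (3.65 to 7.15) are over 4 unigenes, so the set changes too. The medians over 4 unigenes include fits against 0 reads and are no bounds. The log2 fold change of Ug64865 between replicate numbers was 0.74, and -0.26 to 1.37 with a library left out. The count of members with both salt-treated libraries above both control libraries was 4, and 4 to 8 with a library left out. Leaving out a library makes this rule easier to meet, so the count could not fall and the range is no check of it.

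The replicate number used as a block left 0 unigenes called between the conditions in edgeR. With this replicate block the log2 fold changes were 2.92 for Ug8314, 1.98 for Ug100648, 1.83 for Ug36701 and 1.89 for Ug64865. Deviations of same-numbered libraries from their group means correlated at 0.659 across unigenes, but with 2 pairs and no label that says what the numbers mark, the libraries share only a number. Unigenes with fewer than 20 reads or with reads in 1 library limit what can be compared at this depth.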
